A study of Danio rerio with 14 samples.

Results

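The retinal guanylate cyclase gucy2d (also known as gc3) and the guanylate cyclase activating proteins guca1c (gcap3), guca1d (gcap4), guca1g (gcap7) and guca1ab.1 (gcap5, named guca1e in the files) were followed in larval zebrafish eyes. Probes were taken by gene name, and the names were chosen with earlier results of these data known. A further activating protein on the arrays, guca1b, is not among the members and is given below. Every probe whose gene symbol, current or older, is one of these 5 names was taken, which gave 9 of the 17950 probes and 5 of the 8948 genes. Guca1d had 3 probes, guca1c and gucy2d had 2 each, and guca1g and guca1ab.1 had 1 each.

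Eyes of wild-type AB larvae were sampled in 4 groups of 3 RNA samples. The groups were TBBPA at 8 days post fertilization (dpf), control at 8 dpf, TBBPA at 5 dpf and control at 5 dpf. TBBPA larvae were raised in 200 µg/L tetrabromobisphenol A, a brominated flame retardant, until 5 dpf, and control larvae in medium without it (0 µg/L) that held the solvent dimethyl sulfoxide according to the methods. Larvae sampled at 8 dpf had spent the last 3 days in clean water. Each sample came from 1 plate of 24 eggs and pooled the eyes of 10 larvae, so differences between single larvae cannot be seen. Pairs of samples, one in Cy5 and one in Cy3, were read on 14 two-colour arrays, and each array gave 1 log2 ratio per probe.

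Photoreceptors signal light through the nucleotide cyclic GMP (cGMP). In darkness cGMP keeps cation channels of the outer segment open and lets calcium in. Light activates a phosphodiesterase that hydrolyses cGMP, the channels close and calcium falls. The activating proteins are calcium sensors of the calmodulin superfamily that sense this fall and switch on a membrane guanylate cyclase, which makes new cGMP and brings the cell back to its dark state. Zebrafish carry a larger set of these sensors than mammals, and the 4 activating proteins among the members, like gc3, have been described in zebrafish cones.

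Ratios give differences between samples and not the abundance of one gene against another. A level was therefore computed for each of the 12 samples by least squares from the 14 arrays, on the log2 scale and relative to the mean of the 3 control samples at 5 dpf, which is 0 by construction. Log2 fold changes ± standard error (SE) come from limma fitted to all 17950 probes, with n = 3 samples per group, and adjusted p refers to the Benjamini-Hochberg adjustment over all probes. A probe passed at an adjusted p under 0.05 and was called when its absolute log2 fold change was also over 0.75. SE and p of this model take the arrays, not the plates, as replicates. With the 12 sample levels as replicates, no member passed at either age in the comparison of TBBPA with control, and over all 17950 probes this count was 1 at 5 dpf and 0 at 8 dpf.

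All 9 probes had lower values in TBBPA-exposed larvae than in controls at 5 dpf, when exposure ended. Their log2 fold changes ran from -0.78 to -0.18, with a median of -0.40 against a median of 0.00 over all probes. Of the 9 probes 6 passed, all of them lower, where 7.08% of all probes passed in either direction and 2.84% were lower. They were the guca1g probe, all 3 guca1d probes and 1 probe each of guca1c and gucy2d. At 8 dpf, 8 of the 9 probes had lower values in TBBPA larvae, with a median of -0.27. Of these, 2 passed, both of them guca1c and both lower, where 1.39% of all probes passed and 0.696% were lower.

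**Figure D1:**
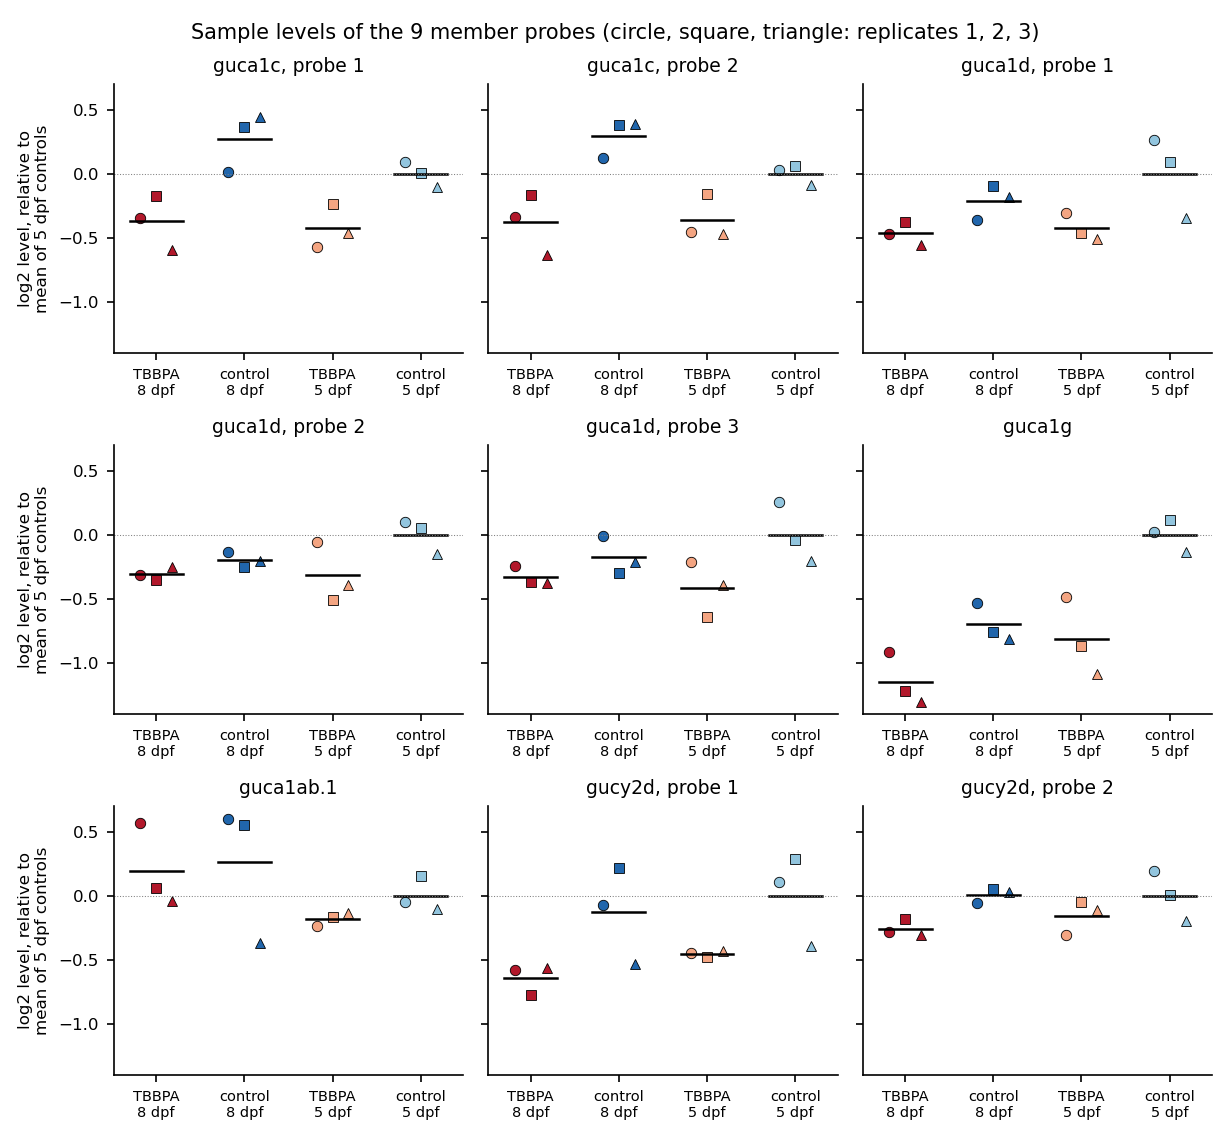
Levels of the 9 probes in the 12 RNA samples (log2, relative to the mean of the 3 control samples at 5 dpf), with groups along the x axis. Circles, squares and triangles are replicates 1, 2 and 3, and lines are group means. Guca1g was lowest in TBBPA samples at 8 dpf, between -1.30 and -0.91, and guca1c was highest in controls at 8 dpf.

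Guca1g showed the widest change among the members at 5 dpf. Its levels were -0.49, -0.87 and -1.09 in the 3 TBBPA samples at 5 dpf, against 0.02, 0.11 and -0.13 in the 3 control samples. The groups did not overlap, and every TBBPA sample lay well below the lowest control. The log2 fold change was -0.78 ± 0.10 (adjusted p = 0.000752, limma), which is 1.72-fold lower, and guca1g was the 1 member called, where 0.708% of all probes were called. On the 6 arrays that set a TBBPA sample against a control of the same age, its ratio lay between -1.27 and -0.30, and 6 of 6 were below 0. Guca1g did not pass without control replicate 1 of 5 dpf, which was hybridised on 4 arrays (log2 fold change -0.72, adjusted p = 0.0687), or with the 12 sample levels as replicates (log2 fold change -0.81, adjusted p = 0.149). It passed but missed the fold threshold of a call without replicate 2 or 3 of TBBPA at 5 dpf (-0.72 and -0.68) and with array weights (-0.74).

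At 8 dpf guca1g was still lower in every TBBPA sample than in any control. TBBPA samples were at -0.91, -1.22 and -1.30, against -0.53, -0.76 and -0.81 in control samples. The arrays comparing TBBPA with control at 8 dpf fell into sets with no sample in common, described below for guca1ab.1. Only arrays with 5 dpf samples joined these sets. For guca1g the mean levels of the sets differed by 0.38, a gap that 15.9% of all probes reached. Ratios on the 4 direct arrays at 8 dpf, which do not depend on this gap, were -0.59 to -0.21. The log2 fold change of -0.41 ± 0.12 did not pass (adjusted p = 0.132, limma). The difference between the change at 8 dpf and that at 5 dpf was 0.37 ± 0.16 and did not pass (adjusted p = 0.385, limma), so a smaller change after recovery was not shown. Group means were highest in controls at 5 dpf, followed by controls at 8 dpf (-0.70), TBBPA at 5 dpf (-0.81) and TBBPA at 8 dpf (-1.15). Samples of controls at 8 dpf and of TBBPA at 5 dpf overlapped.

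Guca1c, in contrast, was the member with the widest change at 8 dpf. Probe 1 gave levels of -0.34, -0.17 and -0.60 in TBBPA samples at 8 dpf, against 0.01, 0.36 and 0.44 in controls. Probe 2 gave -0.33, -0.17 and -0.64 in TBBPA samples, against 0.12, 0.38 and 0.39 in controls. Neither probe showed overlap between the groups, and the levels of both probes ran nearly alike (Pearson r = 0.98 over 12 samples, a description, since both probes were read on the same arrays). Probes of the other genes were less alike, with r of 0.75 to 0.90 for guca1d and 0.68 for gucy2d. The log2 fold change was -0.66 ± 0.08 for probe 1 (adjusted p = 0.00218, limma), or 1.58-fold lower. For probe 2 it was -0.68 ± 0.14 (adjusted p = 0.0262, limma). Neither reached the fold threshold of a call, so 0 members were called at 8 dpf, where 0.217% of all probes were called, while 6 of the 9 had an unadjusted p under 0.05, as did 2104 of all 17950 probes.

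All 4 arrays that compared TBBPA with control at 8 dpf gave guca1c ratios below 0, between -1.06 and -0.31 for probe 1 and between -0.94 and -0.23 for probe 2. Probe 1 passed in 12 of 12 fits that left out 1 RNA sample, with log2 fold changes of -0.76 to -0.54. Probe 2 passed in 5 of 12 such fits, with log2 fold changes of -0.77 to -0.57. It failed without replicate 1 or 3 of TBBPA at 8 dpf (adjusted p = 0.170 and 0.229), without any 1 of the 3 controls at 8 dpf (0.102, 0.194 and 0.137), and without replicate 1 of TBBPA or of control at 5 dpf (0.0991 and 0.0676). With the 12 sample levels as replicates the log2 fold changes were -0.64 and -0.67 (adjusted p = 0.215 and 0.190), and with direct arrays only probe 2 did not pass (adjusted p = 0.0874).

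At 5 dpf guca1c was already lower. Probe 1 was at -0.57, -0.23 and -0.46 in TBBPA samples, against 0.09, 0.01 and -0.10 in controls, with no overlap. Its log2 fold change was -0.40 ± 0.07 (adjusted p = 0.00408, limma), and it did not pass without replicate 1 of TBBPA at 5 dpf (adjusted p = 0.111) or without replicate 1 of the controls (0.163). Probe 2 was at -0.46, -0.16 and -0.47 in TBBPA samples, against 0.03, 0.06 and -0.09 in controls. These groups did not overlap either, but the log2 fold change of -0.33 ± 0.12 did not pass (adjusted p = 0.107, limma).

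The probes of guca1c differed in how they read the dyes. On the 3 arrays at 5 dpf with the TBBPA sample in Cy5, probe 2 gave ratios of TBBPA over control of -0.16 to 0.08, and on the 3 arrays with the TBBPA sample in Cy3 it gave -0.82 to -0.49. Probe 1 gave -0.44 to -0.19 and -0.63 to -0.38 on the same sets of arrays. A dye term fitted to probe 2 was 0.25 ± 0.04 (log2 Cy5 over Cy3, adjusted p = 0.00136, limma), a size that 4% of all probes reached. For probe 1 it was 0.04 ± 0.04. With the dye term in the model both guca1c probes passed at 5 dpf (adjusted p = 0.0201 and 0.0463) and at 8 dpf (0.00614 and 0.00527). A dye difference was not limited to this gene, since the dye term itself passed for 3693 of all 17950 probes. With the dye term in the model, 693 of all probes passed at 5 dpf in place of 1270, and 216 at 8 dpf in place of 250.

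**Figure D2:**
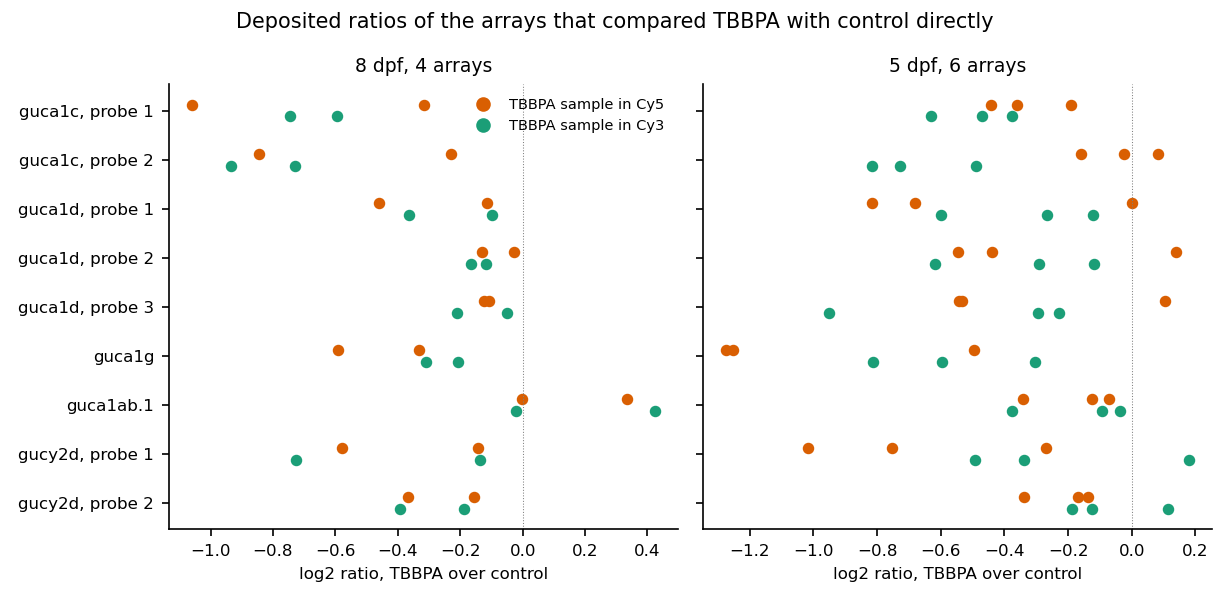
Log2 ratios of TBBPA over control (x axis) on each array that held both samples of one age, for the 9 probes, with 4 arrays at 8 dpf and 6 at 5 dpf. Orange points had the TBBPA sample in Cy5 and green points in Cy3. The colours separate for guca1c probe 2 at 5 dpf and mix for most other probes.

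Group means of guca1c were highest in controls at 8 dpf (0.27 for probe 1), followed by controls at 5 dpf (0), TBBPA at 8 dpf (-0.37) and TBBPA at 5 dpf (-0.42). The samples of the control groups overlapped for probe 1 and not for probe 2, and those of the TBBPA groups overlapped for both probes. The age differences of 0.27 ± 0.11 and 0.31 ± 0.18 in control larvae did not pass (adjusted p = 0.0738 and 0.198, limma). In TBBPA larvae the age differences were 0.01 ± 0.11 and -0.04 ± 0.18. The change under TBBPA at 8 dpf minus that at 5 dpf was -0.26 ± 0.11 and -0.35 ± 0.18 and did not pass (adjusted p = 0.393 and 0.487, limma). None of the 9 probes passed this comparison of effects, where 0.0613% of all probes did. An unadjusted p under 0.05 was found for 2 of the 9, and for 2072 of all 17950 probes.

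Guca1d was lower in TBBPA larvae at 5 dpf on all 3 probes. Probe 1 was at -0.30, -0.46 and -0.51 in TBBPA samples, against 0.26, 0.09 and -0.35 in controls. Probe 2 was at -0.06, -0.51 and -0.39, against 0.10, 0.05 and -0.15, and probe 3 at -0.21, -0.64 and -0.39, against 0.25, -0.04 and -0.21. On all 3 probes control replicate 3 was the lowest control and lay within or at the edge of the TBBPA range. The log2 fold changes were -0.41 ± 0.09, -0.31 ± 0.07 and -0.44 ± 0.09 (adjusted p = 0.0107, 0.0181 and 0.0118, limma).

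Whether guca1d passed depended on single samples. Without control replicate 1 of 5 dpf the log2 fold changes were -0.27, -0.20 and -0.24 (adjusted p = 0.344, 0.413 and 0.354). Without replicate 2 of TBBPA at 5 dpf they were -0.33, -0.20 and -0.32 (adjusted p = 0.125, 0.177 and 0.112). None of the 3 probes passed without control replicate 2 either (adjusted p of 0.0638 to 0.0925), probes 2 and 3 did not without replicate 3 of TBBPA (0.101 and 0.0538), and probe 2 did not without replicate 1 or 2 of the controls at 8 dpf (0.0577 and 0.0510). With direct arrays only, probes 2 and 3 did not pass (0.0661 and 0.0510), and with a dye term probe 2 did not (0.0505). At 8 dpf none of the 3 probes passed. Their log2 fold changes were -0.25, -0.11 and -0.14 (adjusted p = 0.328, 0.726 and 0.734, limma), with 95% intervals of -0.47 to -0.03, -0.29 to 0.07 and -0.38 to 0.10.

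Guca1ab.1 was the member with the least change. TBBPA samples at 5 dpf were at -0.24, -0.16 and -0.13, against -0.05, 0.16 and -0.11 in controls. The groups just missed overlap, and the log2 fold change was -0.18 ± 0.09 (adjusted p = 0.270, limma). At 8 dpf TBBPA samples were at 0.56, 0.06 and -0.04, against 0.60, 0.55 and -0.37 in controls, with full overlap and a log2 fold change of 0.03 ± 0.11 (95% interval -0.20 to 0.26).

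The levels of guca1ab.1 at 8 dpf differed between sets of arrays. Replicates 1 and 2 of the controls and replicate 1 of TBBPA shared 2 arrays, and the other 3 samples shared 2 further arrays. The first set had levels between 0.55 and 0.60 and ratios of TBBPA over control of -0.02 and 0.00. The second set had levels between -0.37 and 0.06 and ratios of 0.33 and 0.42. The sets differed by 0.69, a gap that 2.48% of all probes reached, with a median absolute gap of 0.17 over all probes. No label makes these sets a batch, and the split was chosen after the values were seen. The cause of the spread was not tested.

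The cyclase itself, gucy2d, was lower in TBBPA larvae at both ages, with 1 of its 2 probes passing at 5 dpf. Probe 1 was at -0.45, -0.48 and -0.43 in TBBPA samples at 5 dpf, against 0.11, 0.29 and -0.40 in controls. The TBBPA samples lay close together, with control replicate 3 just above them and the other 2 controls far above. The log2 fold change was -0.46 ± 0.12 (adjusted p = 0.0332, limma). This passed in 4 of 12 fits that left out 1 RNA sample, and adjusted p was 0.0505 to 0.354 in the other 8. These were the fits without any 1 of the 3 TBBPA samples at 8 dpf, without replicate 1 of the controls at 8 dpf, without replicate 1 or 2 of TBBPA at 5 dpf and without replicate 1 or 2 of the controls at 5 dpf. Nor did it pass with a dye term (adjusted p = 0.0675) or with direct arrays only (0.0860). Probe 2 was at -0.31, -0.05 and -0.11 in TBBPA samples, against 0.20, 0.00 and -0.20 in controls. These groups overlapped, and the log2 fold change of -0.19 ± 0.06 did not pass (adjusted p = 0.0720, limma), though it passed without control replicate 3 (-0.26, adjusted p = 0.0230) and with array weights (-0.20, adjusted p = 0.0424).

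At 8 dpf neither gucy2d probe passed, although neither showed overlap. Probe 1 was at -0.58, -0.77 and -0.57 in TBBPA samples, against -0.07, 0.22 and -0.53 in controls, and its log2 fold change was -0.47 ± 0.14 (adjusted p = 0.160, limma), which passed with array weights (-0.53, adjusted p = 0.0239). Probe 2 was at -0.28, -0.18 and -0.31, against -0.06, 0.05 and 0.03, with -0.27 ± 0.07 (adjusted p = 0.0881, limma). The ratios of probe 1 differed between the sets of arrays at 8 dpf that shared samples. They were -0.73 and -0.58 in the first set and -0.14 and -0.14 in the second. For probe 2 they were -0.39 and -0.16 against -0.37 and -0.19. The mean levels of the sets differed by 0.48 for probe 1, a gap that 8.81% of all probes reached, and by 0.06 for probe 2.

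**Figure D3:**
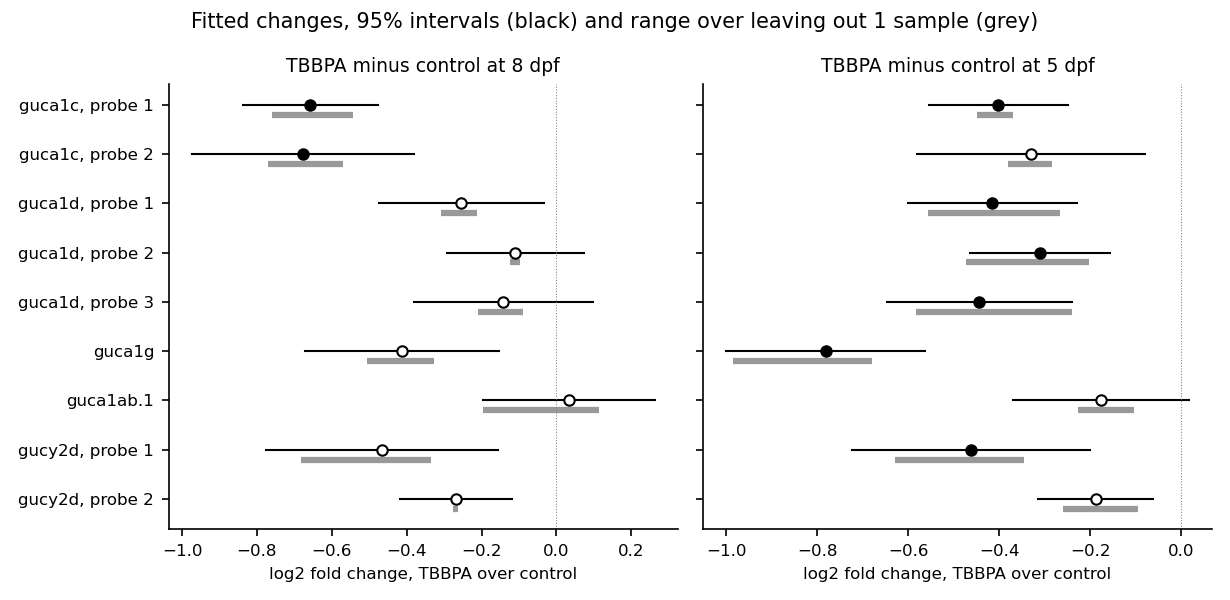
Log2 fold changes of TBBPA over control at 8 dpf (left) and 5 dpf (right) for the 9 probes, with 95% intervals from limma in black. Filled points passed, and grey bars span the fits that left out 1 RNA sample. Intervals of both guca1c probes at 8 dpf and of guca1g at 5 dpf lie farthest from 0.

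Over the 9 probes, the groups did not overlap for 6 at 5 dpf, all with TBBPA lower, where this held for 9.18% of all probes. At 8 dpf it held for 6 as well, all with TBBPA lower, where it held for 2.69% of all probes. Overlap at 8 dpf compares levels across sets of arrays that only 5 dpf samples joined. The probes are not independent, since they share samples and several belong to 1 gene. A single probe with 3 samples against 3 could not have reached a two-sided exact permutation p under 0.1.

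Without control replicate 1 of 5 dpf, 0 of the 9 probes passed at 5 dpf, and 49 of all 17950 probes did in place of 1270. Without replicate 2 of TBBPA or of the controls at 5 dpf, 2 of the 9 passed in either case, and 371 and 364 of all probes did. With probes averaged per gene, guca1c, guca1d, guca1g and gucy2d passed at 5 dpf (4 of 5 genes, log2 fold changes of -0.37, -0.39, -0.78 and -0.33). Of all genes 9.31% passed at this age in either direction, and 3.44% were lower. At 8 dpf guca1c alone passed (-0.67 ± 0.10, adjusted p = 0.00376, limma), where 1.6% of all genes passed.

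With age, guca1g and guca1d were lower at 8 dpf than at 5 dpf in control larvae. For guca1g the difference was -0.91 ± 0.16 (adjusted p = 0.000578, limma). It passed in 11 of 12 fits that left out 1 RNA sample, not without control replicate 1 of 5 dpf (-0.88, adjusted p = 0.0552), and with the 12 sample levels as replicates it was -0.70 (adjusted p = 0.00785). The guca1d probes gave -0.41, -0.37 and -0.43 (adjusted p = 0.0311, 0.0206 and 0.0341, limma), and -0.22, -0.20 and -0.17 from the 12 sample levels, none of which passed. Levels of the control groups overlapped on all 3 probes. When 1 RNA sample was left out, the probes passed in 5, 9 and 5 of 12 fits. Probe 3 was at -0.11 without control replicate 1 of 5 dpf (adjusted p = 0.735, limma). With a dye term none of the 3 passed (adjusted p of 0.0552 to 0.0843). Together 4 of the 9 probes passed, all lower, where 32.3% of all probes passed and 18.2% were lower. The ages were linked by only 4 arrays, and a large share of all probes passed this comparison too.

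In TBBPA larvae the difference with age was -0.54 ± 0.16 for guca1g (adjusted p = 0.0131, limma) and 0.54 ± 0.14 for guca1ab.1 (adjusted p = 0.00637, limma). These 2 probes passed, where 43.3% of all probes did. With the sample levels as replicates the differences were -0.33 for guca1g and 0.37 for guca1ab.1. Neither passed in that fit (adjusted p = 0.128 and 0.240). For guca1ab.1 the TBBPA samples at 8 dpf lay apart, at 0.56, 0.06 and -0.04, and the first of them was in the other set of arrays. Guca1g did not pass without replicate 3 of TBBPA at 8 dpf (-0.41, adjusted p = 0.149), replicate 1 of TBBPA at 5 dpf (-0.29, adjusted p = 0.392) or replicate 1 of the controls at 5 dpf (-0.56, adjusted p = 0.0598). Guca1ab.1 did not pass without replicate 1 of the controls at 8 dpf (0.41, adjusted p = 0.0515) or replicate 1 of TBBPA at 5 dpf (0.53, adjusted p = 0.123). Comparisons between ages and between treatments share samples and are given side by side for this reason.

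Within the eye, fewer cells of a type and less RNA per cell cannot be told apart. A list of 15 cone genes was set beside the members for comparison. Its mean level was 0.00 to 0.17 in TBBPA samples at 5 dpf and -0.05 to 0.05 in controls. At 8 dpf it was -0.74 to -0.47 in TBBPA samples and -0.91 to -0.67 in controls. TBBPA and control samples overlapped in the cone mean at both ages. Relative to it, guca1c was at 0.02 to 0.40 in TBBPA samples at 8 dpf and 0.97 to 1.08 in controls, and guca1g was at -0.75 to -0.18 and -0.14 to 0.38. At 5 dpf guca1g relative to the cone mean was at -1.26 to -0.49 in TBBPA samples and -0.09 to 0.12 in controls. At this age guca1c was at -0.64 to -0.31 and -0.05 to 0.04, and guca1d at -0.65 to -0.19 and -0.19 to 0.15. Gucy2d was at -0.45 to -0.38 and -0.25 to 0.15, and guca1ab.1 at -0.31 to -0.24 and -0.10 to 0.16. The cone list was itself mixed, with 6 genes that rose and 6 that fell at 5 dpf, and 5 that rose and 1 that fell at 8 dpf. Of all genes 9.31% and 1.6% passed at these ages in either direction. The mean of the cone list therefore does not measure the amount of cone RNA. The part of cone RNA in the member values was not tested.

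Markers of other tissue also differed between groups. At 5 dpf all 14 measured genes of the exocrine pancreas were lower in TBBPA samples, with a mean level of -1.39 to -0.72 in TBBPA samples and -0.49 to 0.65 in controls. Of 16 lens genes 11 rose, and of 27 genes of skin and cornea epithelium 14 rose, where 5.87% of all genes rose and 3.44% fell. Of 16 genes of amacrine, bipolar and horizontal cells 5 fell, and their mean was -0.24 to -0.19 in TBBPA samples and -0.12 to 0.09 in controls. At 8 dpf no gene of the pancreas, lens or epithelium list passed. Of the amacrine, bipolar and horizontal cell genes 1 fell at 8 dpf, where 0.861% of all genes did. The mean of that list was -0.16 to -0.11 in TBBPA samples and -0.10 to 0.07 in controls. The mean of 13 rod genes at 8 dpf was -0.37 to -0.26 in TBBPA samples and -0.66 to -0.51 in controls. The part of these differences in the member values was not tested.

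Other genes of the cGMP cycle were taken from lists drawn up by role. Of the other photoreceptor cyclases, activating proteins and their partners, 2 of 14 names were measured. Guca1b, a further activating protein, had log2 fold changes of 0.12 ± 0.07 at 5 dpf and 0.27 ± 0.08 at 8 dpf. Rd3, which in mammals holds the cyclase inactive and aids its transport, had 0.12 ± 0.06 and 0.16 ± 0.07. Neither passed at either age (adjusted p of 0.144 to 0.430, limma), and both values lay above 0 where those of the 5 members except guca1ab.1 at 8 dpf lay below.

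Of 12 names listed for cGMP hydrolysis, 4 fell at 5 dpf and none rose, where 9.31% of all genes passed. Pde6c, the catalytic subunit of the cone phosphodiesterase, was at -0.65, -0.97 and -0.87 in TBBPA samples at 5 dpf, against 0.23, 0.06 and -0.29 in controls. The groups did not overlap, and the log2 fold change was -0.83 ± 0.11 (adjusted p = 0.000567, limma). The names pde6h and pde6ha, for the inhibitory subunit of the cone enzyme, had -0.79 ± 0.15 and -0.67 ± 0.16 (adjusted p = 0.00545 and 0.0147, limma). Unc119a2, counted in this list, is not a subunit of the enzyme but of a family that carries lipidated proteins to the outer segment. Its log2 fold change was -0.32 ± 0.08 (adjusted p = 0.0249, limma). The names pde6g and pde6h were kept from the array design and may stand for the same genes as pde6ga, pde6gb, pde6ha or pde6hb, so these are counts of names.

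At 8 dpf 1 of these 12 names fell and 3 rose, where 1.6% of all genes passed. Pde6c was at -1.70, -1.70 and -1.97 in TBBPA samples, against -0.68, -0.82 and -1.35 in controls, with a log2 fold change of -0.79 ± 0.13 (adjusted p = 0.00589, limma). The names that rose were pde6g, pde6gb and pde6ga, for the inhibitory subunit of the rod enzyme, with 0.61 ± 0.08, 0.52 ± 0.10 and 0.38 ± 0.08. The rod list, whose mean was higher in TBBPA samples at 8 dpf, holds pde6ga and pde6gb itself.

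Channel, exchanger and opsin shutoff genes follow in the cycle. Of all genes 9.31% passed at 5 dpf and 1.6% at 8 dpf. Of 3 names for the cGMP-gated channel and calcium extrusion, slc24a4a, a sodium and calcium exchanger, fell at 5 dpf (-0.31 ± 0.06, adjusted p = 0.00562, limma) and none passed at 8 dpf. Of 11 genes for calcium sensing at the opsin kinase and for opsin shutoff, 3 fell at 5 dpf. They were grk7a, the cone opsin kinase (-0.60 ± 0.10), rcvrn2, a recoverin (-0.33 ± 0.07), and saga, a rod arrestin (-0.19 ± 0.05). None of the 11 passed at 8 dpf. Of 17 opsin and transducin genes 6 rose and 2 fell at 5 dpf, and 6 rose at 8 dpf. The median of this list was 0.14 at 5 dpf and 0.22 at 8 dpf. That of the 9 member probes had the opposite sign (-0.40 and -0.27). No median of the opsins alone was computed.

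**Figure D4:**
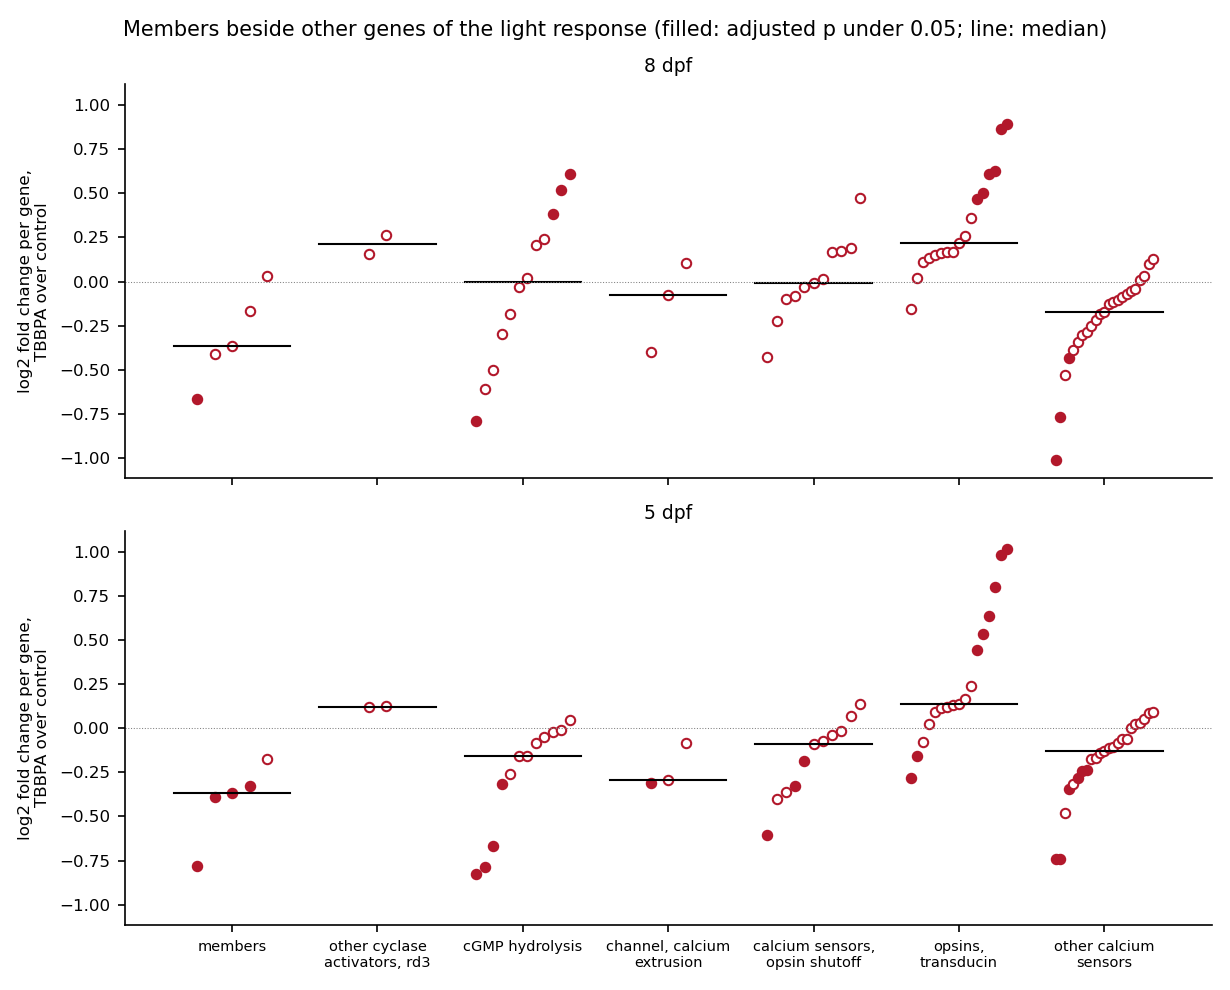
Log2 fold changes of TBBPA over control per gene (y axis) at 8 dpf (top) and 5 dpf (bottom), for the 5 members and for lists of other genes grouped by role along the x axis. Filled points have an adjusted p under 0.05 and lines are medians. Most members lie below 0 at both ages, and the median of the opsin and transducin list lies above 0 at both.

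The counts in these lists also depended on the model and on single samples. At 5 dpf the names for cGMP hydrolysis that fell were 3 with a dye term, 0 without control replicate 1 of 5 dpf, and 0 with the 12 sample levels as replicates. Of all genes 4.3%, 0.626% and 0.0335% passed in these settings, in place of 9.31%. For opsins and transducin at 5 dpf, 5, 2 and 0 rose in the same order of settings, and at 8 dpf 2, 1 and 0 rose in place of 6. Of all genes 1.16%, 1.05% and 0.0112% passed at 8 dpf in this order, in place of 1.6%. For calcium sensing and opsin shutoff at 5 dpf, 2, 0 and 0 fell, and for the channel and calcium extrusion 1, 0 and 0. With a dye term 1 gene for calcium sensing and opsin shutoff rose at 8 dpf. At 8 dpf pde6c was the 1 name for cGMP hydrolysis that fell with a dye term (-0.80, adjusted p = 0.0100), and 0 fell with the 12 sample levels.

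For each member the 5 genes most alike were those with the highest Pearson r of their levels over the 12 samples, all read on the same 14 arrays, and r is given as a description. For guca1g they were zgc:162331 (0.93), pde6c (0.92), sulf2b (0.90), rnf146 (0.90) and pde6h (0.89). For gucy2d they were pde6ha (0.90), napba (0.90), pak1 (0.89), dbpa (0.88) and aldocb (0.88). The cone phosphodiesterase thus stood among the nearest genes of both. For guca1c they were camk2n2a (0.90), arhgap12b (0.90), fam107b (0.89), sdha (0.89) and wu:fc15e02 (0.88), and for guca1d they were hccsb (0.93), trmt9b (0.91), synj2bp (0.89), necab1 (0.88) and ankrd33aa (0.87). For guca1ab.1 they were arhgap5 (0.98), plekhj1 (0.98), gbp4 (0.97), gnaz (0.97) and pcdh1g1 (0.97), and none of these 5 passed at either age. Whether these 5 genes share the gap of guca1ab.1 between sets of arrays, given above, was not tested.

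Between members, r over the 12 samples was highest for guca1d and guca1g (0.82), and 0.59 once group means were taken out. It was 0.73 for guca1d and gucy2d and 0.68 for guca1g and gucy2d, and 0.43 and 0.14 without group means. For guca1c and gucy2d it was 0.65, and 0.18 without group means. Guca1ab.1 had 0.30 to gucy2d and 0.01 to guca1g, and 0.55 and 0.44 without group means. Mean levels of the sets of arrays described above differed in the same direction for guca1ab.1 (0.69), guca1g (0.38) and gucy2d probe 1 (0.48). For gucy2d probe 2 the gap was 0.06. The sets divide samples of the same group, so such a gap stays in r when group means are taken out. Its part in r was not tested. Guca1c followed the other activating proteins least once group means were taken out, with -0.08 to guca1d, -0.13 to guca1g and -0.16 to guca1ab.1.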

How the data were processed

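The deposited values were log2 ratios (Cy5 over Cy3) per probe and array. According to the methods, the authors quantified spots with GenePix software, left out spots too dim on all arrays, corrected background with a normal-exponential model, applied loess within arrays and fitted limma 3.34.4. The table states neither log base nor direction. Both were taken from the methods and dye labels, and reversing the sign of 1 array at a time made the residual sum of squares 1.02 to 1.88 times as large. A reversal of all arrays at once would go unseen.

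Ratios were fitted with limma 3.58.1 in R 4.3.3, with a coefficient per group and the RNA sample as a random effect of 1 share common to all probes. That share was estimated as 0, so arrays counted as independent (11 residual and 3.61 prior degrees of freedom). With a dye term it was 0.167. Scripts were tested on simulated data. Of 17950 probes 14135 had a symbol, and 12089 matched by accession to RefSeq names (GRCz12tu). Replicates are plates. Members, lists and the rule for named genes (every member probe, list genes that passed, nearest genes) were chosen with earlier results of these data known. Alternatives were a dye term, 12 sample levels, direct arrays only, a replicate block, centring, scaling, array weights, gene averages and leaving out each sample. The number of arrays limits the precision. No sequence was used here.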

Additional observations from a re-analysis of the deposited data

How the results depend on the processing

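Median centring, array scaling and independent arrays left the number of member probes that passed at 6 at 5 dpf and 2 at 8 dpf, a dye term gave 5 and 2, and array weights gave 7 and 3. With a dye term 693 and 216 of all probes passed, in place of 1270 at 5 dpf and 250 at 8 dpf. With array weights 1483 and 882 of all probes did, so the count over all probes rose too. At 5 dpf, 0 member probes passed with the 12 sample levels and 3 with direct arrays only, and 0 to 7 when 1 sample was left out. Of all probes 1, 758 and 49 to 1700 passed in these settings. At 8 dpf, 0 members passed with the 12 sample levels, 1 with direct arrays only and 1 with genes in place of probes, and 1 to 2 when 1 sample was left out. Of all probes 0 passed with the 12 sample levels, 67 with direct arrays only and 9 to 594 when 1 sample was left out. Of all genes 1.6% passed. For the members the difference between the effects gave 0 throughout. Between control ages the member count of 4 became 1 with a dye term, 1 with the 12 sample levels, 1 with a replicate block and 2 genes, with 0 to 4 when 1 sample was left out. In place of 5792 of all probes, 5557, 3965 and 3348 passed in the first 3 of these settings. Of all genes 37% passed, and 1394 to 6914 of all probes did when 1 sample was left out. Between TBBPA ages the member count of 2 became 0 with the 12 sample levels and 1 with a replicate block, with 0 to 2 when 1 sample was left out. In place of 7774 of all probes, 4911, 6081 and 1765 to 7575 passed in these settings. The cause was not tested.

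No label pairs same-numbered samples beyond the number, though some of them were set against each other on an array. The correlations of their deviations were -0.14, -0.11 and -0.04 at 5 dpf and 0.68, -0.46 and 0.09 at 8 dpf. Since levels come from these arrays, the correlations do not decide whether the samples were paired. With the replicate block 6 member probes passed at 5 dpf and 3 at 8 dpf, where 1413 and 341 of all probes did.

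In no alternative did a value that had passed change its sign. Signs changed for guca1ab.1 at 8 dpf (-0.067 with the 12 sample levels, -0.026 with array weights, -0.20 to 0.11 when 1 sample was left out). For the difference between the effects they changed for gucy2d probe 1 (0.0052 with the replicate block, 0.052 with direct arrays only, -0.22 to 0.16 when 1 sample was left out) and for guca1ab.1 (-0.020 to 0.31 when 1 sample was left out). Between control ages they changed for gucy2d probe 1 (0.051 with array weights, -0.34 to 0.036 when 1 sample was left out) and probe 2 (0.0060 with the 12 sample levels, -0.17 to 0.21 when 1 sample was left out). Between TBBPA ages they changed for guca1c probe 1 (-0.024 with the replicate block, -0.034 with scaled arrays, -0.042 to 0.10 when 1 sample was left out), guca1c probe 2 (-0.17 to 0.17), guca1d probe 2 (0.013 with the 12 sample levels, -0.22 to 0.0067), guca1d probe 3 (0.088 with the 12 sample levels, 0.075 with the replicate block) and gucy2d probe 2 (-0.31 to 0.027).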

Other observations

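Of 23 genes for other calcium sensors of neurons, outside the cGMP cycle, 6 fell at 5 dpf and 3 at 8 dpf, and none rose, where 9.31% and 1.6% of all genes passed in either direction. At 5 dpf the count was 3 with a dye term and 1 without control replicate 1 of 5 dpf, where 4.3% and 0.626% of all genes passed. Ncaldb, a neurocalcin, was at -0.50, -0.54 and -0.39 in TBBPA samples at 8 dpf, against 0.35, 0.78 and 0.49 in controls, with a log2 fold change of -1.01 ± 0.13 (adjusted p = 0.00152, limma). At 5 dpf it was -0.74 ± 0.11 (adjusted p = 0.00129, limma), which did not pass without that control sample (-0.54, adjusted p = 0.0753). Cabp5b, known as a marker of bipolar cells, had -0.77 ± 0.11 at 8 dpf and -0.74 ± 0.09 at 5 dpf (adjusted p = 0.00253 and 0.000441, limma). None of the 23 passed with the 12 sample levels as replicates, where 0.0335% of all genes did at 5 dpf and 0.0112% at 8 dpf. These genes were named after their values were seen.

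Among 12 genes that supply purines for GTP, the substrate of the cyclase, 2 rose and 1 fell at 5 dpf, and 1 rose at 8 dpf. Of all genes 9.31% and 1.6% passed at these ages. The list median was 0.01 at 5 dpf and -0.05 at 8 dpf. The gene that rose at 8 dpf was impdh1b. Its levels were 0.43, 0.50 and 0.53 in TBBPA samples at 8 dpf, against -0.29, -0.06 and 0.13 in controls, with no overlap and a log2 fold change of 0.53 ± 0.07 (adjusted p = 0.00173, limma). At 5 dpf it was 0.22 ± 0.06 (adjusted p = 0.0291, limma), which did not pass with a dye term (adjusted p = 0.115), without control replicate 1 of 5 dpf (0.489) or with the 12 sample levels (0.648). The 8 dpf value did not pass with the 12 sample levels (adjusted p = 0.142). It codes for an enzyme of guanine nucleotide synthesis, and it too was named after its values were seen. The 2 measured soluble guanylate cyclase subunits did not pass at either age.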
